A study of Mus musculus with 36 samples.

Results

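Livers of mice homozygous for a phenylalanine at residue 441 of the liver X receptor alpha (LXRalpha, F/F) were compared with livers of heterozygous mice (W/F), all kept on normal chow. The comparison used 8 of the 36 libraries of the study, 4 from each genotype, and 16638 of the 49315 genes listed, those with at least 1 TPM in at least 4 of the 36 libraries. TPM is a level corrected for transcript length and for the total of its library. The mice were males aged 11 to 12 weeks in which CRISPR had replaced tryptophan 441 of LXRalpha by phenylalanine, and polyA RNA was sequenced from the liver. W/F mice keep 1 normal allele and F/F mice keep none, so the comparison asks what the loss of that allele goes with when no diet challenge is given. The 4 W/W livers on chow, from controls with both alleles normal, are given beside them as levels only. A separate set of W/F and F/F mice, 4 of each, ate a MASH-promoting diet (Teklad TD.96121, rich in fat and cholesterol) for 4 weeks and received vehicle by daily gavage in the last 2 weeks. The chow mice were a cohort of their own, so diet, gavage and cohort cannot be told apart. The mutation was not restricted to the liver by any promoter or Cre named in the labels, and strain, litter and founder line were not given in the sources used here. Replicates are separate samples per the labels. The p-values and standard errors of single genes rest on the spread between replicates, pooled over the 9 groups of all 36 libraries. These include the livers on the MASH diet, so the spread is not that of the 8 chow libraries alone.

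LXRalpha is a nuclear receptor that binds oxidised forms of cholesterol. As a heterodimer with the retinoid X receptor it sits on the DNA of its target genes, where a ligand exchanges bound corepressors for coactivators. In liver its best known targets promote cholesterol efflux and excretion, the conversion of cholesterol to bile acids, and the synthesis and desaturation of fatty acids, in part through the transcription factor Srebf1. In macrophages it is known for restraining inflammatory genes and for supporting the identity of resident Kupffer cells. Tryptophan 441 lies at the carboxyl end of the protein, in the helix that docks coactivators.

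The codons below show where the mutated residue lies and which gene holds it. The design text of the study gives LXRalpha the symbol Nr1h2, which is the usual symbol of LXRbeta, and Nr1h3 is the usual symbol of LXRalpha. In the 445-codon transcripts of Nr1h3 codon 441 reads as tryptophan, in the last of 10 exons, at chr2:91184351-91184353 on the minus strand. In the 446-codon transcripts of Nr1h2, on the minus strand of chromosome 7, it reads as isoleucine. Both stretches are reference sequence from GENCODE M21 (build GRCm38), run from codon 423 to the stop codon, and have codon 441 in capitals.
Nr1h3: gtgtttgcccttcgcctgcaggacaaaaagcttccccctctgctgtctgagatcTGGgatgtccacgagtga
Nr1h2: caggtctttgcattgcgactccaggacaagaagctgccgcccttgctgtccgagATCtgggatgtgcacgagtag
A tryptophan at residue 441 is thus found in the Nr1h3 reference and not in this Nr1h2 transcript. The mutated base was not examined in these libraries, whose values are totals per gene. Nr1h3 itself held 109, 95.4, 105 and 101 TPM in the F/F livers and 81.3, 87.4, 102 and 110 TPM in the W/F livers, so that the groups overlapped. Its log2 difference was 0.11 ± 0.10 (SE), adjusted p = 0.40, and a substituted codon need not alter the transcript level, so this is no check of the labels. Of 20 genes of LXR, its RXR partners and their cofactors, 6 were higher as deposited, a smaller share than the 37.9% of all genes. Among them was Nr1h2 (0.43 ± 0.10, adjusted p = 0.0014, and 0.09 after rescaling). In both scalings 1 of the 20 was higher, against 16.5% of all genes. It was Ppargc1a, which encodes a coactivator (0.96 ± 0.20, adjusted p = 0.00047). After rescaling 4 of the 20 were lower, against 14.7% of all genes.

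Library depth recovered from the steps between low TPM values was 21.1 to 32.4 M reads in F/F and 20.7 to 21.8 M in W/F. Intervals on these reads would cover counting error only, because PCR copies of 1 molecule cannot be counted once here. The makeup of the libraries differed. The F/F libraries listed 14076, 13590, 14282 and 14330 genes at 1 TPM or more and the W/F libraries 12687, 12688, 12766 and 12539, without overlap (exact permutation test, two-sided, p = 0.0286, the smallest that 4 against 4 allow). The 100 most abundant genes took 49.96% ± 3.03 of all TPM in F/F and 54.3% ± 1.08 in W/F (SD, n = 4, exact p = 0.0857), which did not pass. Without replicate 2 of F/F they took 48.5% in F/F (exact p = 0.0286). With any other 1 library left out the exact p was 0.0857 to 0.1143. When a few abundant genes take less of a library, TPM of all other genes go up together, so each call was also made after rescaling the libraries by the median of gene ratios, and counts in both scalings are given. Hepatocyte markers summed to 113700 to 136200 TPM in F/F and 105600 to 137100 TPM in W/F, and Alb, which encodes albumin, averaged 50640 ± 8495 and 51733 ± 12442 TPM. The sums of hepatocyte markers thus overlapped between the groups.

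With limma and Benjamini-Hochberg adjustment over all genes tested, 6884 genes (41.4%) differed between F/F and W/F at an adjusted p under 0.05, of which 6314 (37.9%) were higher and 570 (3.43%) lower in F/F. The median difference over all genes was 0.26 on the log2(TPM + 1) scale. After rescaling, which brought this median to -0.01, 5185 genes (31.2%) differed, 2739 (16.5%) higher and 2446 (14.7%) lower. The share of calls that were higher went from 91.7% to 52.8%, so the balance of directions depends on the scaling. In both scalings 2739 genes (16.5%) were higher and 568 (3.41%) lower, and 3 genes changed direction between them. Of the larger changes, 1224 genes were called higher in both scalings with a log2 difference above 1 and 156 lower with one below -1. For 5725 genes (34.4%) the 4 F/F and 4 W/F livers did not overlap, 5377 (32.3%) with F/F above and 348 (2.09%) with F/F below. Leaving out replicate 4 of F/F gave 5296 calls and leaving out replicate 2 gave 7497, the ends of the range over the 8 libraries.

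**Figure D1:**
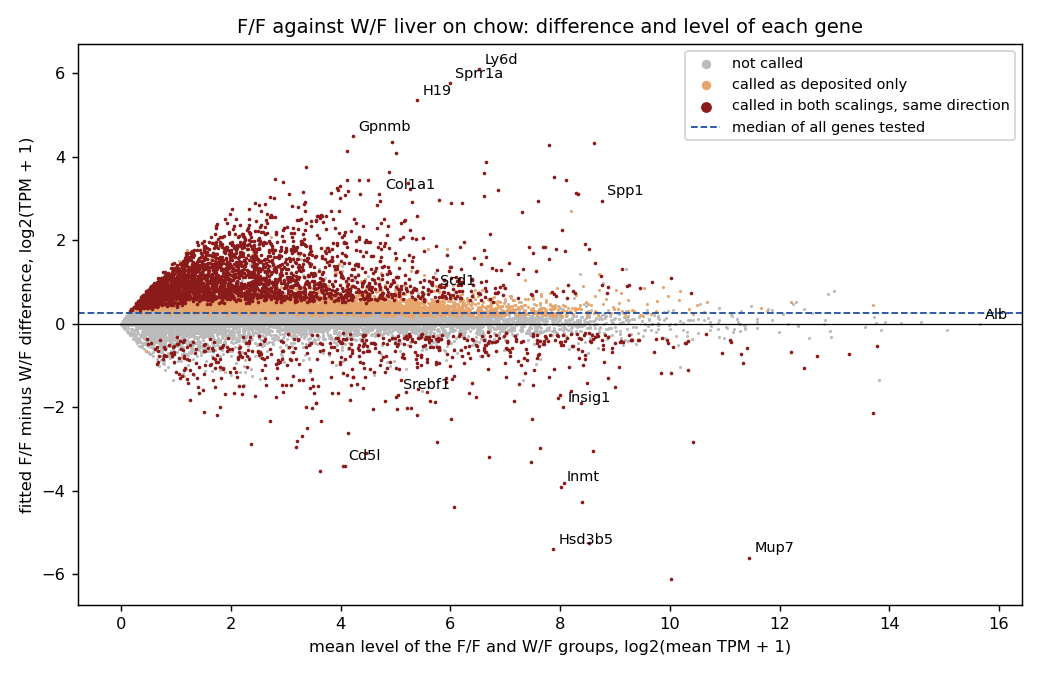
Fitted F/F minus W/F difference of each of the 16638 genes on the log2(TPM + 1) scale (vertical) against the log2 of the mean level of both groups plus 1 TPM (horizontal), with genes called as deposited only in orange and those called in both scalings in dark red. The dashed line at 0.26 is the median of all genes, and the labelled genes run from Ly6d at 6.09 to Mup7 at -5.60.

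The largest rises, by a rule that asked for a call in both scalings, at least 5 TPM and no overlap, were mostly in genes nearly silent in W/F liver. Ly6d, a small surface protein of stem-like epithelial and B-lineage cells (chr15:74762056-74763620), held 105, 82.2, 275 and 259 TPM in F/F, while W/F was at 0.322, 1.11, 2.34 and 2.19 TPM. Every F/F liver was far above every W/F liver and above the W/W livers, which held 0.920 to 2.76 TPM. The log2 difference was 6.09 ± 0.51, adjusted p = 5.8e-10. Sprr1a, a cornified envelope protein induced in injured tissue, reached 19.4, 22.9, 148 and 310 TPM in F/F and at most 0.578 TPM in W/F, where 8 reads were recovered over all 4 libraries (5.76 ± 0.58, adjusted p = 1.2e-08). H19, an imprinted noncoding RNA of fetal liver, was at 17.4, 35.8, 152 and 119 TPM against 0.246 to 0.646 TPM (5.36 ± 0.41, adjusted p = 1.8e-10). For Sprr1a and H19 alike, replicates 3 and 4 of F/F were several times above replicates 1 and 2. The others of the 12 largest were Gpnmb (4.49), Ubd (4.34), a ubiquitin-like modifier, Cpe (4.13), carboxypeptidase E, Cd14 (4.08), the coreceptor for lipopolysaccharide, Gm11843 (3.88), Timp1 (3.76), an inhibitor of metalloproteinases, Gm3776 (3.62), Cd63 (3.61), a tetraspanin of endosomes and lysosomes, and H2-M2 (3.47), a nonclassical class I molecule. Of the exon sequence of Gm3776, 92.5% is shared with other genes, so its reads may belong to another gene of the glutathione transferase family.

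The largest falls were in genes of abundant secreted and steroid-handling proteins of male liver. Mup7, a major urinary protein (chr4:60066469-60070475), held 6368, 3712, 4301 and 6294 TPM in W/F and 1451, 88.1, 31.8 and 26.5 TPM in F/F (log2 difference -5.60 ± 1.05, adjusted p = 0.00011). The groups did not overlap, and replicate 1 of F/F was well above the other F/F livers. Mup15 (-6.12), Mup17 (-5.25), Mup16 (-4.40), Mup11 (-4.26), Mup14 (-3.82) and Mup1 (-3.40) also fell. Of the exon sequence of Mup7 86.7% is shared with other genes, and of these other members 61.6% to 100%, so the counting may split reads among the family. Hsd3b5, a hydroxysteroid dehydrogenase, fell by 5.40 ± 0.90 (adjusted p = 2.4e-05), from 486, 496, 391 and 330 TPM to 152, 6.79, 1.88 and 1.89 TPM. Inmt, indolethylamine N-methyltransferase, was at 599, 546, 638 and 171 TPM in W/F and 33.3, 21, 29.8 and 30.1 TPM in F/F (-3.90 ± 0.36, adjusted p = 3.9e-09), and at 616 to 1709 TPM in W/W. Unlike Mup7 and Hsd3b5, Inmt was low in replicate 1 of F/F too. Cd5l, which encodes a scavenger protein secreted by Kupffer cells, completed the named falls with a difference of -3.40 ± 0.38 (adjusted p = 7.0e-08), together with the small RNA gene Gm23726 (-3.53) and the pseudogene Gtpbp4-ps1 (-3.30), whose sequence is shared to 100% and 83.0%.

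LXR target genes moved in both directions. Of 29 tested, 8 (27.6%, against 37.9% of all genes) were higher in F/F, 6 of them in both scalings. A further 9 (31.0%, against 3.43% of all genes) were lower, all 9 in both scalings, and 13 were lower after rescaling. The median of the list was -0.01 against 0.26 for all genes (-0.36 and -0.01 after rescaling). The cholesterol exporters that excrete sterol into bile and load it on lipoprotein were near their W/F levels. Abca1 held 30.2, 38.0, 26.1 and 22 TPM in F/F and 27, 26.1, 30.4 and 32.7 TPM in W/F (-0.02 ± 0.15, adjusted p = 0.94), with overlapping groups. Abcg5 and Abcg8, the partners that form the biliary sterol exporter, overlapped as well, at 0.01 ± 0.23 (adjusted p = 0.98) and -0.09 ± 0.27 (adjusted p = 0.82). Abcg1, a sterol exporter of macrophages, was at 3.94, 2.89, 5.18 and 4.29 TPM against 1.15, 1.59, 1.82 and 1.92 TPM and rose by 0.94 ± 0.24 (adjusted p = 0.0020). Abcg1 was thus higher in each F/F liver than in any W/F liver, and macrophage markers rose in the same livers, as given further on; their part in this rise was not tested. Mylip, a ubiquitin ligase and known LXR target, was higher as deposited only (0.48 ± 0.18, adjusted p = 0.028) and not after rescaling (0.18, adjusted p = 0.39).

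The lipogenic targets were low. Srebf1, the master regulator of fatty acid synthesis (chr11:60199089-60222581), held 134, 116, 119 and 125 TPM in W/W, 67.1, 45.4, 52.9 and 33.0 TPM in W/F and 17.3, 11.3, 13.2 and 15.2 TPM in F/F. Each F/F liver was below each W/F liver, and the fall was 1.70 on the log2 scale (SE 0.22, adjusted p = 4.8e-07). Apoc1, an apolipoprotein that hampers lipoprotein uptake, fell by 0.93 ± 0.11 (adjusted p = 2.2e-07), to 1766 ± 86.0 TPM from 3396 ± 487 TPM. In W/W Apoc1 averaged 5520 ± 632 TPM, so that for both genes the group means descended from W/W over W/F to F/F. Lpcat3, which places polyunsaturated chains in phospholipids, fell less (-0.44 ± 0.14, adjusted p = 0.013), and the groups overlapped because replicate 4 of W/F, at 38.7 TPM, was below the other W/F livers, which held 59.3 to 61.4 TPM.

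Scd1, the stearoyl-CoA desaturase and a classical LXR target (chr19:44394455-44407879), went against that order. It held 3818, 4146, 1423 and 5447 TPM in W/W, 30.01, 63.5, 37.8 and 21.8 TPM in W/F and 93.5, 53.3, 50.3 and 58.6 TPM in F/F. Both mutant groups lay far below W/W and overlapped each other. The F/F minus W/F difference was 0.79 ± 0.30 (adjusted p = 0.033), but 0.44 (adjusted p = 0.28) after rescaling, and the call was also lost without replicate 1 or 4 of F/F or replicate 1 or 4 of W/F, without a filter on low genes, with array quality weights and with only the 8 libraries in the fit. Pnpla3, a lipase of the lipid droplet, was at 0.472 to 6.35 TPM in W/W and under 0.6 TPM in every mutant liver, at 0.283, 0.158, 0.401 and 0.538 TPM in F/F and 0.155, 0.102, 0.15 and 0.0754 TPM in W/F. The groups did not overlap, but the difference of 0.26 ± 0.33 did not pass (adjusted p = 0.56). Scd2, a related desaturase of other tissues, rose from 3.21 ± 1.46 to 10.0 ± 4.50 TPM (1.32 ± 0.32, adjusted p = 0.0013).

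Fatty acid and triglyceride synthesis was lower in several members. Of 31 tested, 11 (35.5%, against 3.43% of all genes) fell, all 11 in both scalings, and 18 were lower after rescaling. Another 6 (19.4%, against 37.9% of all genes) were higher, 2 of them in both scalings. The median of the list was -0.32 against 0.26 for all genes. Fasn, fatty acid synthase, held 33.2, 12.7, 21.7 and 22.3 TPM in F/F and 91.4, 56.4, 80.1 and 54.1 TPM in W/F, and fell by 1.64 ± 0.41 (adjusted p = 0.0022). Mid1ip1 and Thrsp, partners that activate acetyl-CoA carboxylase, fell by 2.18 ± 0.29 (adjusted p = 8.1e-07) and 3.19 ± 0.67 (adjusted p = 0.00037). Acaca, acetyl-CoA carboxylase itself, fell by 0.86 ± 0.18 (adjusted p = 0.00034), from 10.9, 9.78, 10.5 and 8.55 TPM to 6.84, 2.97, 4.90 and 6.0 TPM. All F/F values of these 4 genes lay below all W/F values, and Thrsp was widest, with 52.7 TPM in replicate 1 of F/F and 7.37 to 13.4 TPM in the others. Part of the exon sequence of Acaca, 30.4%, is shared with other genes.

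Cholesterol synthesis and uptake had the most uniform fall of the lists. Of 25 genes tested 22 were lower in F/F, all 22 in both scalings, and 18 of the list lay below without overlap, with a median of -0.94 (-1.29 after rescaling). Insig1, which holds the sterol sensor in the endoplasmic reticulum, was at 318, 346, 560 and 457 TPM in W/F and 159, 76.8, 94.8 and 93.3 TPM in F/F (-2.0 ± 0.22, adjusted p = 5.1e-08). Mvd, mevalonate diphosphate decarboxylase, fell by 1.87 ± 0.24 (adjusted p = 7.7e-07), from 52.4, 79.9, 113 and 78.5 TPM to 34.8, 14.9, 19.9 and 17.6 TPM. Msmo1 and Hsd17b7, later enzymes of the pathway, fell by 1.45 ± 0.18 (adjusted p = 4.7e-07) and 1.26 ± 0.14 (adjusted p = 5.1e-08). In all 4 genes every F/F liver was below every W/F liver, and replicate 1 was the highest F/F liver.

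Other members were chosen for naming after their values were seen. Hmgcs1, the synthase that opens the pathway, held 1075, 1318, 1566 and 1075 TPM in W/F and 839, 352, 499 and 628 TPM in F/F (-1.17 ± 0.21, adjusted p = 6.8e-05). Sqle, squalene epoxidase, fell by 1.08 ± 0.17 (adjusted p = 1.1e-05). Cyp51 (-0.34 ± 0.22, adjusted p = 0.22) and Idi1 (-0.47 ± 0.23, adjusted p = 0.096) did not pass, though both did after rescaling. For Hmgcs1 the W/W livers held 483, 830, 315 and 517 TPM, all below the W/F livers and overlapping F/F. Msmo1 (218 ± 15.3 TPM in W/F, 82.5 ± 28.3 TPM in F/F and 98.9 ± 18.6 TPM in W/W) was highest in W/F too, while Insig1 in W/W, at 310 to 388 TPM, overlapped W/F. In Hmgcs1 and Msmo1 the F/F livers overlapped the W/W livers.

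Promoters of these genes were searched because the members fell together, and genes of cholesterol synthesis are known to be driven by SREBP2 with the help of NF-Y, which binds CCAAT boxes. RefSeq promoters (GRCm38.p6, 250 bases before to 50 after the start) were matched for 17 of the 25 genes. CCAAT, on either strand, was found in 16 of these 17 genes (94.1%), against 41.1% of 27025 genes with a promoter. The sterol response element TCACNCCAC, on either strand, was found in Hmgcs1 only (5.88%), against 1.44% of all genes. The stretches below show Hmgcs1, the only member with both motifs, Mvd, which fell, and Idi1, which did not pass as deposited. They are reference sequence in the direction of the gene, with matches of both motifs in capitals and ATTGG being CCAAT on the other strand, and all end upstream of the start.
Hmgcs1: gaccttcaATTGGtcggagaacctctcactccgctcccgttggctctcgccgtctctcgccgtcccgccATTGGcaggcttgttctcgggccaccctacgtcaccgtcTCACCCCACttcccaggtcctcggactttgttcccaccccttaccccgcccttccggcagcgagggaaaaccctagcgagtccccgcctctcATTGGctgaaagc
Mvd: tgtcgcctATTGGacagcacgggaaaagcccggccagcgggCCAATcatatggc
Idi1: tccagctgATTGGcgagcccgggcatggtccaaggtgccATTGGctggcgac
These are chr13:119690106-119690318 (plus strand) for Hmgcs1, chr8:122443437-122443490 (minus strand) for Mvd and chr13:8885553-8885604 (plus strand) for Idi1. Hmgcs1 has 4 matches, 3 of CCAAT and 1 of the sterol element, and Mvd and Idi1 have 2 each. CCAAT was also found in promoters of genes that rose, in 22 of 28 cell cycle genes (78.6%), and in 10 of 21 male-biased genes (47.6%). A match describes these letters and is no evidence of a bound factor.

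**Figure D2:**
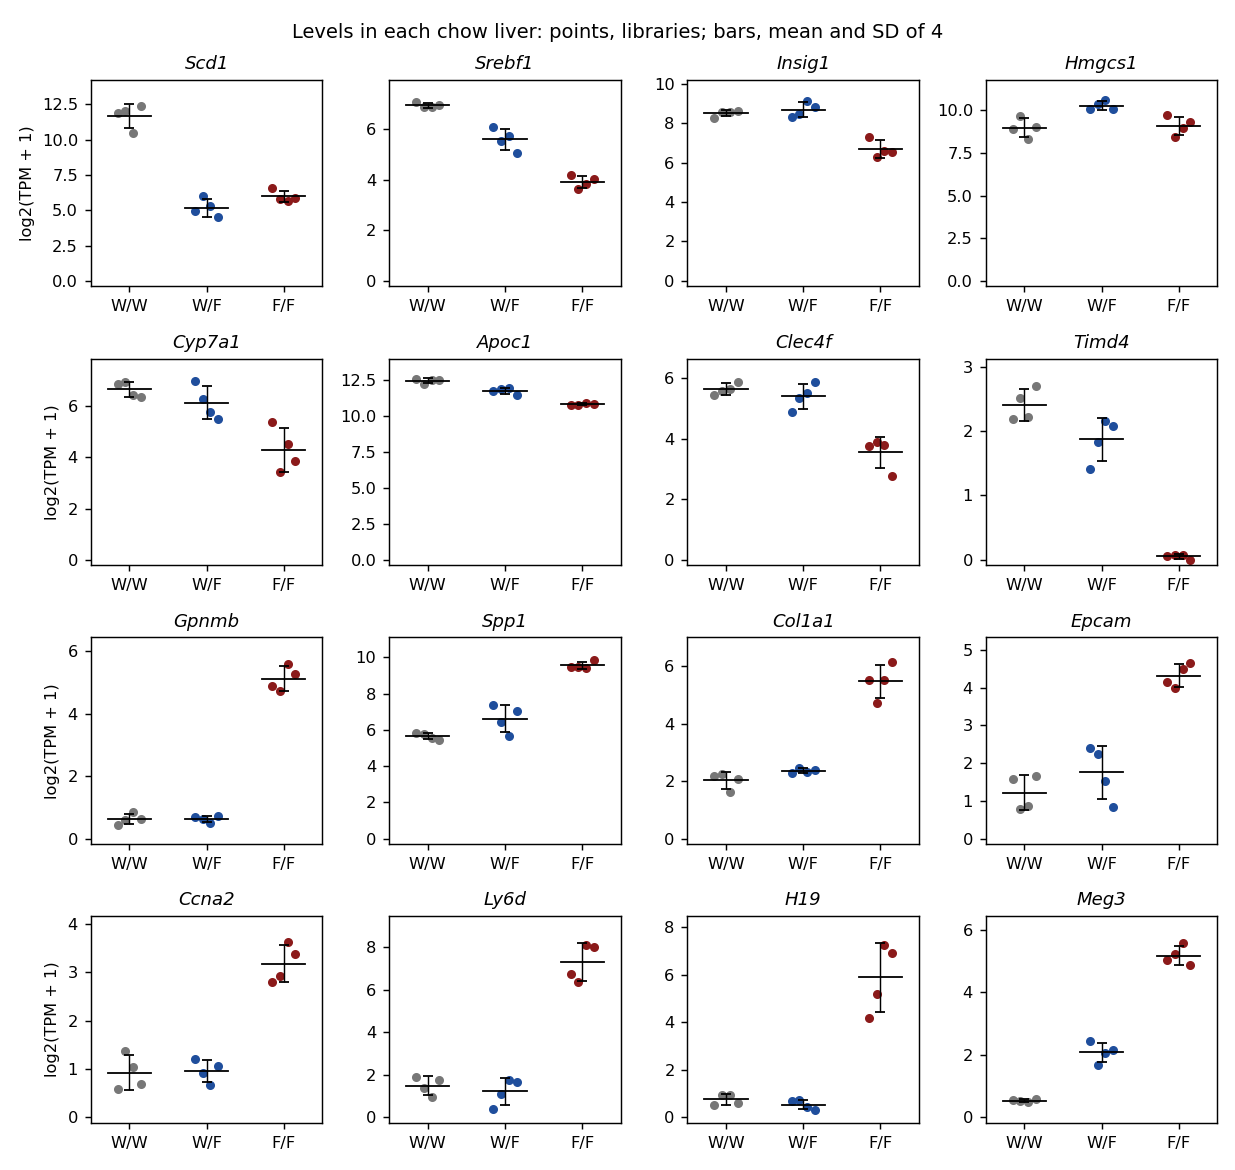
Level of 16 genes in each chow liver on the log2(TPM + 1) scale, with points for libraries and bars for the mean and SD of 4 W/W (grey), 4 W/F (blue) and 4 F/F (red) livers. Srebf1 and Apoc1 descend in steps, Scd1 is low in both mutant groups, Hmgcs1 is highest in W/F, and Gpnmb, Col1a1, Ccna2, Ly6d and H19 are highest in F/F.

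Bile acid genes and PPAR-alpha targets shifted in part. Of 25 bile acid genes 8 fell in both scalings and 3 were higher (2 in both), Abcb4 (0.85), Abcc4 (0.85) and Slc51b (1.62), with a median of -0.26, and 17 were lower after rescaling. Cyp7a1, the rate-limiting enzyme of bile acid synthesis, held 41.0, 9.67, 22.2 and 13.5 TPM in F/F and 125, 76.5, 54.3 and 44.9 TPM in W/F (-1.84 ± 0.45, adjusted p = 0.0016). Cyp7b1 and Cyp27a1 of the alternative pathway fell by 3.06 ± 0.54 (adjusted p = 4.7e-05) and 0.82 ± 0.12 (adjusted p = 2.8e-06), and Cyp2c70, which makes muricholic acids, by 1.18 ± 0.19 (adjusted p = 1.7e-05). Cyp8b1, the sterol 12-hydroxylase, was at 448 ± 83.0 and 492 ± 102 TPM (-0.13 ± 0.31, adjusted p = 0.77). Both groups overlapped in Cyp8b1, and Cyp7b1, also a male-biased gene, was at 408 TPM in replicate 1 of F/F and 29.7 to 68.1 TPM in the other 3.

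Of 30 PPAR-alpha targets and genes of fatty acid oxidation, 8 (26.7%, against 3.43% of all genes) fell, all 8 in both scalings. Another 4 (13.3%, against 37.9% of all genes) were higher, and the median of the list was -0.09. After rescaling 13 were lower, with only the 8 libraries in the fit 5 were lower, and without replicate 2 of F/F 7 were higher. Cpt1a, the carrier that admits fatty acids to mitochondria, was among the higher ones, at 379, 398, 386 and 339 TPM against 252, 254, 184 and 196 TPM (0.77 ± 0.14, adjusted p = 0.00010). Fgf21 rose by 1.67 ± 0.39 (adjusted p = 0.0010), Aqp7, a glycerol channel, by 1.34 ± 0.21 (adjusted p = 1.3e-05), and Hadhb was called as deposited only (0.24, and -0.11 rescaled). Acot1, a cytosolic thioesterase, Acaa1b, a peroxisomal thiolase, and Cyp4a32, a microsomal cytochrome P450, fell by 1.89 ± 0.36, 1.90 ± 0.33 and 1.28 ± 0.20 (adjusted p = 0.00014, 3.4e-05 and 1.4e-05), with 30.5% and 43.8% of the sequence of the latter pair shared with other genes. Cpt1a was higher in every F/F liver and Acot1 lower, so members of this list moved in opposite directions.

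Among 27 fatty acid binding and lipoprotein genes, 7 (25.9%, against 37.9% of all genes) rose, 6 of them in both scalings. Another 4 (14.8%, against 3.43% of all genes) fell, among them Apoc1, Apoa2 (-0.52) and Fabp1 (-0.78), with 9 lower after rescaling. Apoa4, an apolipoprotein induced by lipid load, held 398, 271, 863 and 725 TPM in F/F and 42.9, 69.9, 67.3 and 55.2 TPM in W/F (3.12 ± 0.32, adjusted p = 1.5e-08). Each F/F liver exceeded each W/F liver, although 69.8% of its exons overlap another gene, whose reads cannot be separated here. Fabp5 rose by 1.63 ± 0.36 (adjusted p = 0.00070) with overlap, since F/F held 19.2, 70.4, 26.2 and 21.4 TPM and W/F 8.67, 7.60, 4.09 and 21.7 TPM. Of 19 lipid droplet genes 7 (36.8%, near the 37.9% of all genes) were higher as deposited, 4 without replicate 4 of F/F and 1 in both scalings, among them Pnpla2, Plin3 and Hsd17b13 (0.63, 0.64 and 0.47), and Lipe, hormone-sensitive lipase, was the only one lower as deposited (-0.58), where 5 were after rescaling.

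Male-biased liver genes, those set by the pulsatile growth hormone pattern of males, fell as a group. Of 30 tested 20 fell in both scalings, 12 of the list lay below without overlap, and 1 rose, Socs2 (1.86 ± 0.43, adjusted p = 0.00093), which growth hormone itself induces through STAT5 and which was named after its value was seen. The median was -1.28, and -1.63 after rescaling. The sum of the list was 26230 to 67310 TPM in F/F and 71700 to 90430 TPM in W/F. Replicate 1 of F/F kept intermediate levels, as given for Mup7, Hsd3b5 and Cyp7b1, and Mup12, with 85.4% of its sequence shared, fell too (-3.10 ± 0.51, adjusted p = 2.2e-05). Replicates 2 to 4 were lower than replicate 1 in each of these 4 genes.

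Female-biased genes moved less. Of 19 tested 7 (36.8%, near the 37.9% of all genes) were higher, 4 of them in both scalings. Another 2 (10.5%, against 3.43% of all genes) were lower, Cyp2c40 (-1.28) and Cyp2c69 (-1.30), whose sequences are shared to 60.3% and 54.3%. Cyp2b9, a cytochrome P450 of female liver, held 7.84, 30.5, 74.5 and 48.3 TPM in F/F and 3.00, 1.51, 6.42 and 0 TPM in W/F (3.44 ± 0.89, adjusted p = 0.0027). Replicate 1 of F/F was closest to W/F in this gene as well. Fmo2 was called higher as deposited (0.87 ± 0.29, adjusted p = 0.019) and not after rescaling (0.57, adjusted p = 0.13). Leaving out replicate 3 or 4 of F/F left 4 female-biased genes called higher. Without replicate 1 of W/F 0 were lower, and 1 was without replicate 2 of W/F or with only the 8 libraries in the fit. Of 28 drug and steroid cytochromes P450, 9 (32.1%, against 3.43% of all genes) fell, all 9 in both scalings. Another 3 (10.7%, against 37.9% of all genes) were higher, Cyp2b9, Cyp2c38 and Cyp2c39, the latter pair as deposited only (0.92 and 0.89). Cyp2c29 and Cyp2f2 fell by 1.51 ± 0.26 and 1.19 ± 0.23 (adjusted p = 3.6e-05 and 0.00016) and Cyp2j5 by 0.44 ± 0.11 (adjusted p = 0.0017). After rescaling 14 were lower, and without replicate 2 of F/F 4 were.

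Kupffer cell markers split. Of 20 tested 8 (40.0%, near the 37.9% of all genes) rose, 6 of them in both scalings. Another 8 (40.0%, against 3.43% of all genes) fell, all in both scalings. Without overlap 8 of the list lay above and 6 below, against 32.3% and 2.09% of all genes. Those that fell were Cd5l, Cd163, Clec4f, Fcna, Folr2, Marco, Timd4 and Vsig4, which mark resident Kupffer cells of embryonic origin or their scavenger functions. Those that rose were Adgre1, C1qa, C1qb, C1qc, Csf1r, Cd207, Hmox1 and Id3, most of which other macrophages also express. Clec4f, the lectin most specific to Kupffer cells, held 28.4, 39.5, 44.1 and 57.7 TPM in W/F and 12.4, 13.7, 12.9 and 5.84 TPM in F/F (-1.85 ± 0.27, adjusted p = 4.8e-06). Timd4, a phosphatidylserine receptor of long-lived resident macrophages, was at 1.65, 2.55, 3.47 and 3.22 TPM in W/F and at 0.0378, 0.0563, 0.0535 and 0 TPM in F/F. Over the 4 libraries this amounts to 202 recovered reads in W/F and 3 in F/F, the limit of detection, so no fold is given (fitted difference -1.82 ± 0.23, adjusted p = 5.2e-07). No F/F liver came near a W/F liver for either gene. In bulk liver, fewer cells of a type and less RNA per cell cannot be told apart.

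Pan-macrophage members went up in the same livers. Adgre1, which encodes F4/80, was at 12.0, 8.89, 13 and 15.2 TPM in F/F and 2.33, 3.38, 4.25 and 5.21 TPM in W/F (1.49 ± 0.34, adjusted p = 0.0010). Csf1r, the receptor for the macrophage growth factor, rose by 1.71 ± 0.31 (adjusted p = 7.1e-05) and C1qa by 1.58 ± 0.30 (adjusted p = 0.00011). Cd207, langerin, a lectin first known from Langerhans cells, went from 1.34, 1.63, 3.05 and 5.21 TPM to 18.4, 19.4, 25.5 and 15.8 TPM (2.54 ± 0.41, adjusted p = 1.7e-05). Hmox1 (1.04) and Id3 (0.86) were called as deposited only, and Marco (-1.49 ± 0.59, adjusted p = 0.043) lost its call when any 1 of the F/F libraries, or replicate 3 or 4 of W/F, was left out. Cd5l, Cd163, Clec4f, Fcna, Marco and Timd4 were below, and all 8 markers that rose were above, the W/F range in each F/F liver, while Folr2 and Vsig4 overlapped.

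Markers of lipid-associated macrophages, a state known from steatotic liver, rose almost throughout. Of 20 tested 18 rose in both scalings, 17 of the list without overlap, with a median of 2.35 (2.10 after rescaling), and Acp5 (0.11 ± 0.10, adjusted p = 0.37) and Plin2 (0.38 ± 0.18, adjusted p = 0.093) did not pass as deposited. Gpnmb, a lysosomal glycoprotein, held 28.5, 25.7, 47.3 and 37.8 TPM in F/F and 0.607, 0.543, 0.409 and 0.644 TPM in W/F (4.49 ± 0.53, adjusted p = 1.6e-07). Trem2, a lipid receptor that marks the state, was at 5.42, 3.59, 8.58 and 7.50 TPM against 0.0937 to 0.315 TPM (2.52 ± 0.27, adjusted p = 3.1e-08). Spp1, osteopontin, held 718, 698, 681 and 933 TPM against 162, 84.1, 49.5 and 130 TPM (2.94 ± 0.29, adjusted p = 9.6e-09). Cd9 and Lgals3 rose by 2.57 ± 0.27 and 3.17 ± 0.46 (adjusted p = 2.1e-08 and 3.5e-06). Spp1 is also made by bile duct cells, whose markers rose as well, and which cells carried it was not tested. The W/W livers held Gpnmb at 0.342 to 0.798 TPM and Trem2 at 0.107 to 0.208 TPM.

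Other leukocyte genes rose to different extents. Of 29 monocyte and inflammation genes 21 rose, 16 in both scalings, with a median of 1.23. Cx3cr1, the fractalkine receptor, was at 9.49, 5.89, 10.6 and 13.3 TPM in F/F against 0.386 to 0.517 TPM (2.86 ± 0.27, adjusted p = 6.0e-09), Cxcl14 rose by 3.43 ± 0.34 (adjusted p = 1.0e-08) and Vcam1, an adhesion molecule, by 1.94 ± 0.30 (adjusted p = 1.1e-05). Ccl2, the monocyte attractant, overlapped between groups through replicate 4 of W/F at 5.33 TPM, with F/F at 2.69 to 10.6 TPM (1.57 ± 0.56, adjusted p = 0.026, and 0.071 after rescaling). Class II antigen presentation rose in 9 of 14 genes (8 in both scalings), with a summed level of 858 to 1149 TPM in F/F and 114 to 216 TPM in W/F. H2-Aa held 115, 85.9, 102 and 81.7 TPM against 9.02, 9.12, 21.1 and 9.27 TPM (2.96 ± 0.55, adjusted p = 0.00010). H2-Ab1 and H2-Eb1 rose by 2.88 ± 0.53 and 3.05 ± 0.54 (adjusted p = 7.9e-05 and 6.0e-05), and Ctss, the protease that trims the class II invariant chain, by 3.21 ± 0.42 (adjusted p = 8.5e-07). The F/F and W/F livers did not overlap in any of these 4 genes.

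Neutrophil markers rose in 9 of 19 genes (8 in both scalings). S100a8 and S100a9, the calprotectin subunits, rose by 2.37 ± 0.52 and 2.60 ± 0.50 (adjusted p = 0.00059 and 0.00015), with S100a9 at 20.002, 10.1, 22.5 and 27.6 TPM in F/F and 1.15, 2.48, 1.11 and 6.25 TPM in W/F. Lymphocyte markers rose in 2 of 21 genes, Cd79b of B cells (1.00 ± 0.21) and Klrd1 of natural killer cells (1.21 ± 0.26), and the list summed to 23.6 to 42.0 TPM in F/F, 8.84 to 18 TPM in W/F and 18.3 to 36 TPM in W/W. Interferon-stimulated genes were higher in 16 of 30 (10 in both scalings), with modest sizes such as Usp18 at 1.32 ± 0.24 (adjusted p = 7.3e-05), Ifi27l2a at 1.51 ± 0.34 (adjusted p = 0.00083) and Rsad2 at 1.13 ± 0.28 (adjusted p = 0.0019). The interferon list summed to 853.5 to 1092 TPM in F/F, 694.1 to 821.8 TPM in W/F and 907.1 to 1106 TPM in W/W. The F/F sums were thus above W/F but overlapped W/W. The shares called higher were 9.52% for lymphocyte, 53.3% for interferon and 47.4% for neutrophil genes, against 37.9% of all genes. The first 2 depended on the fit: with array quality weights 7 lymphocyte and 26 interferon genes were higher, and with only the 8 libraries in the fit 8 and 24. With a pseudocount of 0.1 there were 8 lymphocyte genes, with voom 6 and without replicate 2 of F/F 4. Without overlap, 8 of 21 lymphocyte and 22 of 30 interferon genes lay above W/F, as did 32.3% of all genes.

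Genes of stellate cells and fibrosis rose on plain chow. Of 40 tested 37 rose, 35 in both scalings and 35 of the list without overlap, with a median of 1.70 (1.38 rescaled), and the list summed to 798 to 1516 TPM in F/F and 292 to 366 TPM in W/F. Col1a1, the chain of type I collagen, held 45.2, 25.5, 44.3 and 69.1 TPM in F/F and 3.89, 4.53, 3.99 and 4.24 TPM in W/F (3.11 ± 0.39, adjusted p = 4.5e-07). Col3a1, type III collagen, held 69.7, 38.2, 72.3 and 95.9 TPM against 9.14, 9.37, 7.91 and 5.44 TPM (2.92 ± 0.35, adjusted p = 1.9e-07). Lum, a proteoglycan of collagen fibrils, rose by 3.23 ± 0.24 (adjusted p = 1.1e-10), and Timp2 and Tgfbi, a metalloproteinase inhibitor and a matrix protein, by 1.92 ± 0.20 and 1.87 ± 0.20 (adjusted p = 2.5e-08 and 2.7e-08). Replicate 2 of F/F was the lowest F/F liver in Col1a1 and Col3a1 and still more than 4 times above the W/F means. Acta2, the smooth muscle actin of activated stellate cells and vessel walls, overlapped, at 7.52, 4.19, 6.40 and 14.1 TPM against 2.56, 3.57, 6.90 and 2.81 TPM (0.83 ± 0.37, adjusted p = 0.067). Ecm1 (0.13, adjusted p = 0.57) and Thy1 (0.38, adjusted p = 0.29) did not pass either.

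Bile duct and ductular markers rose in 22 of 24 genes, 20 in both scalings, with a median of 1.28 and sums of 2322 to 3601 TPM in F/F against 773 to 948 TPM in W/F. Epcam, an adhesion molecule of duct and progenitor cells, held 16.6, 15, 21.6 and 24.1 TPM against 4.29, 3.70, 1.87 and 0.800 TPM (2.57 ± 0.30, adjusted p = 1.3e-07). Krt19, the duct keratin, rose by 1.54 ± 0.22 (adjusted p = 2.9e-06), Sox9, a transcription factor of duct cells, by 1.24 ± 0.21 (adjusted p = 3.3e-05) and Cd24a by 2.46 ± 0.26 (adjusted p = 3.3e-08). Groups did not overlap for these 4 genes. Tff2 (0.69, adjusted p = 0.15) did not pass and was at most at 2.25 TPM in any of the 8 livers. Of 28 endothelial markers 12 (42.9%, near the 37.9% of all genes) were higher as deposited and 6 in both scalings. Among them was Plvap, a protein of capillary fenestrae (1.12 ± 0.20, adjusted p = 6.4e-05). The median of the list was 0.31, close to the 0.26 of all genes. Of 10 markers of mesothelial, red blood, fat and pancreas cells 1 was higher, Wt1 (0.54), and 2 lower, Alas2 (-0.63) and Cela1 (-0.95).

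**Figure D3:**
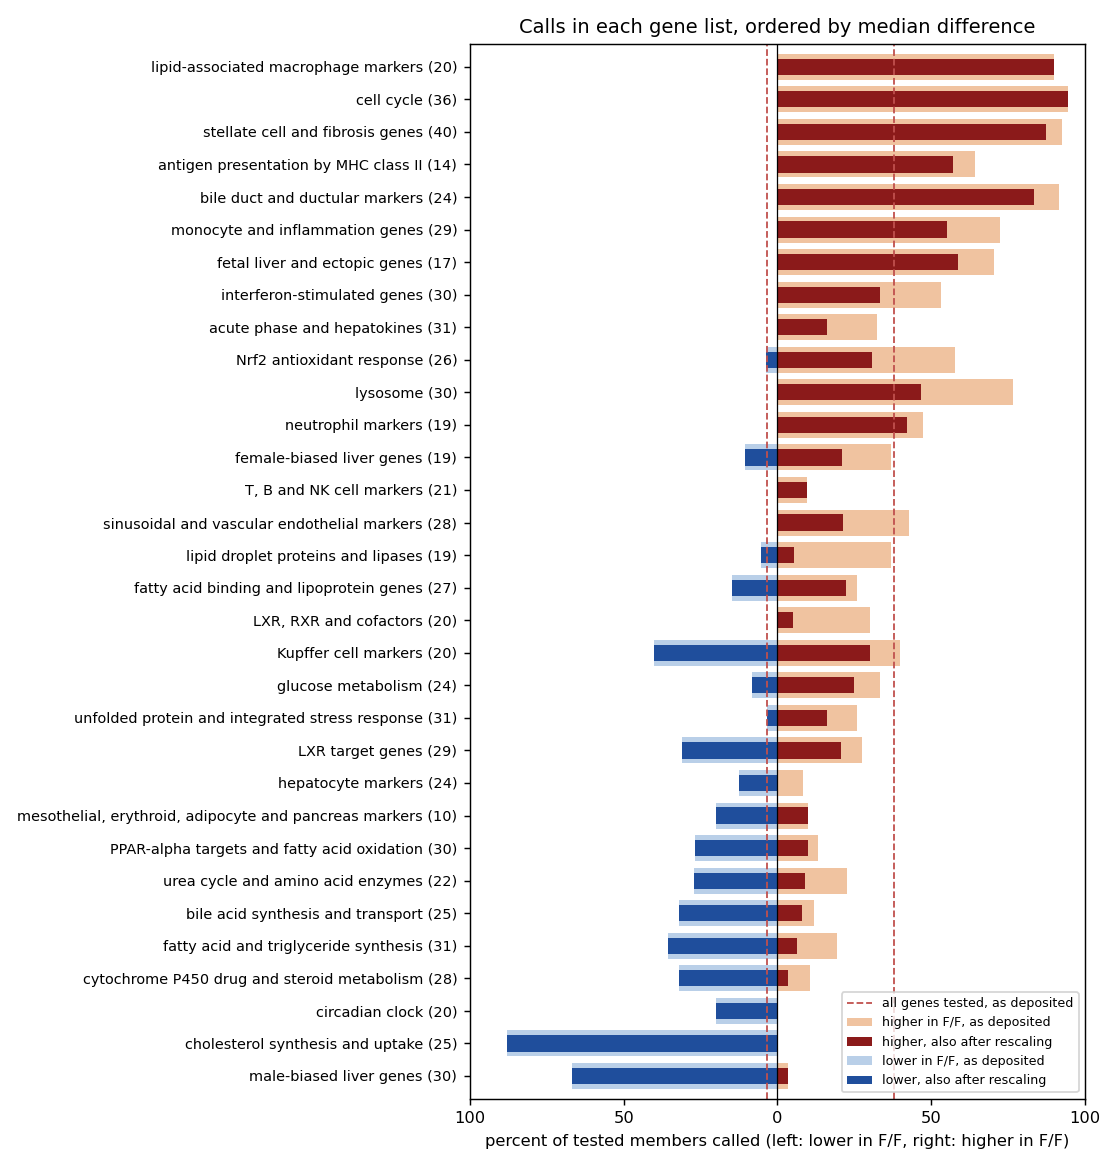
Percent of the tested members of each gene list (number tested in parentheses) called higher in F/F (right) or lower (left), pale bars as deposited and dark bars also after rescaling, ordered by the list's median difference. Dashed lines mark the 37.9% of all genes called higher and the 3.43% called lower, and lipid-associated macrophage, cell cycle and stellate lists stand at the top, cholesterol synthesis and male-biased genes at the bottom.

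Cell cycle genes rose in 34 of 36 in both scalings, and 34 of the list lay above without overlap, with a median of 1.81 (1.56 rescaled) and a summed level of 349 to 566 TPM in F/F against 92.0 to 120 TPM in W/F and 88.6 to 123 TPM in W/W. Ccna2, cyclin A2, held 5.98, 6.56, 11.4 and 9.38 TPM against 1.32, 0.895, 0.596 and 1.08 TPM (2.21 ± 0.21, adjusted p = 4.2e-09). Mki67, the antigen used to stain dividing cells, was at 5.22, 6.38, 9.61 and 7.76 TPM against 0.905, 0.551, 0.553 and 1.04 TPM (2.21 ± 0.25, adjusted p = 7.0e-08). Stmn1, Kif20a and Cdkn2c rose by 2.30 ± 0.23, 2.18 ± 0.22 and 1.80 ± 0.18, and Ccnb1, named after its value was seen, by 2.5 ± 0.26. Ccne1 (0.32, adjusted p = 0.21) and Ccne2 (0.22, adjusted p = 0.32), the cyclins of the entry to S phase, did not pass. Cdkn1a, the inhibitor p21, rose as well, at 7.03, 30.3, 34.3 and 36.8 TPM against 0.970, 1.43, 2.14 and 2.20 TPM (3.19 ± 0.45, adjusted p = 2.4e-06). Replicate 1 of F/F was the lowest of its group in Cdkn1a. Markers of macrophages, stellate cells and duct cells rose in the same livers, and which cells carried the cell cycle transcripts was not tested.

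Fetal and ectopic genes were higher in 12 of 17 (70.6%, against 37.9% of all genes), 10 of them in both scalings, with a median of 0.94. The list holds Ly6d, Sprr1a and H19, given above among the largest rises, and was chosen with earlier results of these data known. Its count and median are therefore a description and no independent evidence. Meg3, a maternally expressed noncoding RNA (chr12:109541001-109571726), had the smallest adjusted p of the named genes, with 31.4, 36.4, 47.1 and 28.1 TPM in F/F, 4.40, 2.19, 3.16 and 3.43 TPM in W/F and 0.394 to 0.494 TPM in W/W. The groups were apart at each step, and the F/F minus W/F difference was 3.10 ± 0.20 (adjusted p = 7.7e-12). Anxa2, an annexin that belongs to the bile duct list and not to this one, rose by 2.85 ± 0.35 (adjusted p = 2.9e-07). Afp, the fetal albumin, was at 3.16 ± 0.893 and 1.67 ± 0.598 TPM, called as deposited (0.64 ± 0.21, adjusted p = 0.017) and not after rescaling (0.39, adjusted p = 0.14). Hepatocyte markers were lower in 3 of 24, Cyp2f2, Serpina1c (-0.67) and Tdo2 (-0.55), and higher as deposited in 2, Ahsg and Trf (0.45 and 0.39), with 11 lower after rescaling.

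Stress and degradation genes differed in degree. Of 26 Nrf2 targets 15 were higher (8 in both scalings) and 1 lower, and after rescaling 6 were lower. Srxn1, sulfiredoxin, held 96.4, 83.3, 179 and 347 TPM against 26.9, 32.5, 37.2 and 35.6 TPM (2.15 ± 0.30, adjusted p = 2.3e-06), and Cbr3 rose by 2.5 ± 0.46 (adjusted p = 8.2e-05). Gsta1 rose by 3.08 ± 0.49 (adjusted p = 1.3e-05) with 90.5% of its sequence shared with other genes, and Gstp1, which is also male-biased, was the member that fell (-1.05 ± 0.22, adjusted p = 0.00036). F/F replicates 3 and 4 were highest in Srxn1, Cbr3 and Gsta1. Of 31 genes of the unfolded protein and integrated stress responses 8 (25.8%, against 37.9% of all genes) were higher (5 in both scalings, and 5 without replicate 4 of F/F or with only the 8 libraries in the fit), such as Atf3 (2.01 ± 0.37, adjusted p = 0.00010) and Psat1 (1.88 ± 0.28, adjusted p = 4.6e-06), and Herpud1 fell (-1.03 ± 0.21, adjusted p = 0.00035), with 8 of the list lower after rescaling. Lysosomal genes were higher in 23 of 30, 14 in both scalings, with Ctsl, cathepsin L, at 1.01 ± 0.14 (adjusted p = 2.1e-06).

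Genes of central metabolism outside lipids moved in both directions. Of 24 genes of glucose metabolism 8 (33.3%, against 37.9% of all genes) were higher (6 in both scalings), led by Ldha, lactate dehydrogenase (0.86 ± 0.12, adjusted p = 1.4e-06), and 2 lower, among them Pygl, liver glycogen phosphorylase (-0.48), and 6 were lower after rescaling. Of 22 urea cycle and amino acid genes 5 (22.7%, against 37.9% of all genes) were higher, Rhbg (1.53), Oat (1.08), Got1 (0.86), Slc1a2 (0.72) and Glul (0.54). Another 6 (27.3%, against 3.43% of all genes) were lower, all 6 in both scalings. Among the members that rose, Glul, glutamine synthetase, Rhbg, an ammonium transporter, Oat and Slc1a2 are known for expression around the central vein. They were singled out from the higher members only, and a shift between liver zones was not tested. Of these genes Rhbg and Oat were called in both scalings. However, 61.4% of the exons of Rhbg overlap another gene and 60.4% of its sequence is shared, so its reads may belong to another gene. Oat held 1280, 1502, 1356 and 1449 TPM in F/F and 576, 602, 656 and 823 TPM in W/F (adjusted p = 3.2e-05), without overlap. After rescaling 13 genes of that list were lower.

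The counts of acute phase and clock genes moved with single libraries. Of 31 acute phase genes and hepatokines 10 (32.3%, against 37.9% of all genes) were higher, 5 of them in both scalings. As deposited, 20 were higher without replicate 4 of W/F and 5 when only the 8 libraries compared entered the fit. That W/F liver held 3791 TPM of Saa1 and 418 TPM of Lcn2, against 18.3 to 22.2 and 3.93 to 4.68 TPM in the other W/F livers, and Saa1 did not pass (1.32 ± 1.23, adjusted p = 0.41). In F/F, replicate 2 held 8903 TPM of Fgb and 2330 TPM of Mt2, against 2465 to 2739 and 155 to 199 TPM in its group. Il1rn, the interleukin 1 antagonist, and Igfbp1 passed without overlap at 1.88 ± 0.30 and 2.67 ± 0.52 (adjusted p = 1.2e-05 and 0.00018). Of 20 clock genes 4 were lower, Hlf (-0.64), Cry2 (-0.43), Tef (-0.74) and Per3 (-1.05), all with overlap, and leaving out replicate 2 of F/F, or fitting only the 8 libraries, removed all 4 calls. Leaving out replicate 3 of W/F gave 8 lower and 3 higher, leaving out replicate 1 of F/F 7 lower and 1 higher, and any other omission of 1 library 1 or 2 lower. Replicate 3 of W/F held 7.45 TPM of Arntl against 0.255 to 1.16 TPM in the other W/F livers, and the time of day of collection was not given in the sources used here.

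**Figure D4:**
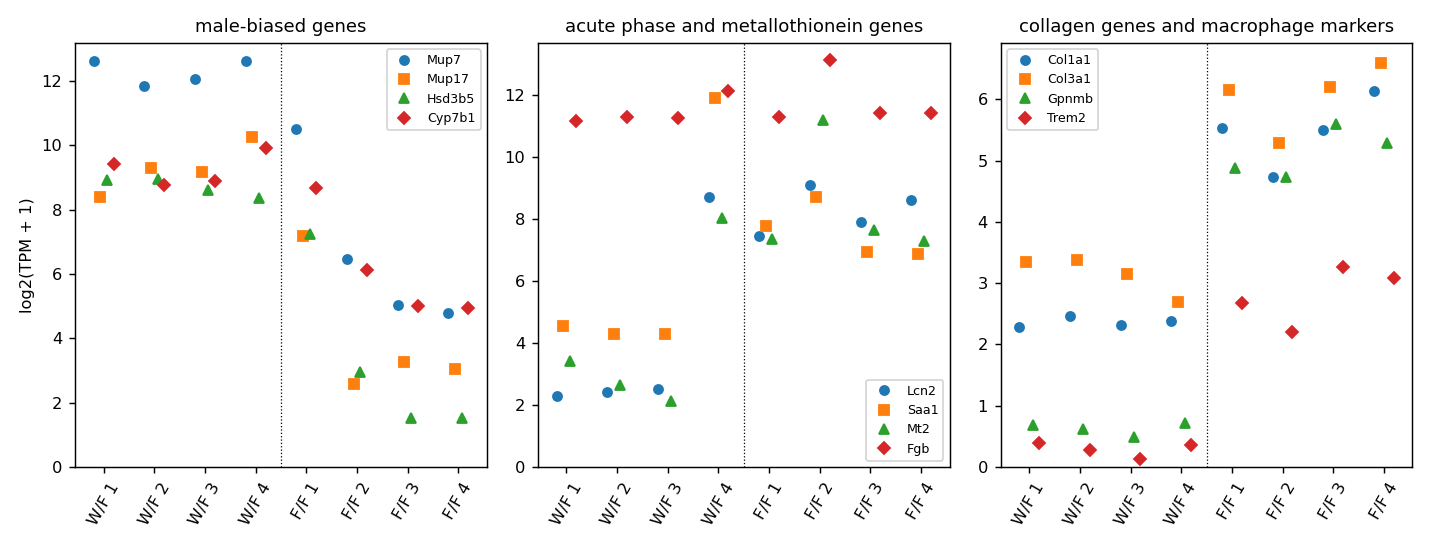
Level of 12 genes in each of the 8 chow libraries on the log2(TPM + 1) scale, W/F replicates 1 to 4 on the left and F/F replicates 1 to 4 on the right of each panel. Replicate 1 of F/F keeps intermediate male-biased genes, W/F replicate 4 has high Saa1 and Lcn2, F/F replicate 2 has the highest Fgb and Mt2, and the collagen and macrophage genes separate all F/F from all W/F livers.

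The F/F minus W/F difference on chow was set against that on the MASH diet with vehicle, as the difference between both, tested in the same limma model. It differed for 1136 genes (6.83%), 913 (5.49%) with the chow difference more positive and 223 (1.34%) more negative. Without replicate 3 or 4 of F/F on chow, or replicate 3 of W/F with vehicle, 703, 722 and 746 genes were called. In the diet groups the median F/F minus W/F difference over all genes was 0.18. Scd1 had the smallest p of the named genes, since with vehicle it held 13.1 ± 1.61 TPM in F/F and 514 ± 138 TPM in W/F, a difference of -5.15, while on chow both groups were low (difference between diets 5.94, adjusted p = 1.0e-10). Cyp2b9 also turned over, with 0.200 ± 0.199 TPM in F/F and 14.3 ± 10.3 TPM in W/F on the diet (6.43, adjusted p = 0.0015).

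Some genes that F/F livers expressed on chow were high in both genotypes on the diet. Ly6d held 994 ± 335 TPM in F/F and 597 ± 257 TPM in W/F with vehicle, a difference of 0.77 against 6.09 on chow (difference between diets 5.31, adjusted p = 2.2e-05). The chow difference was the larger one for Sprr1a (difference between diets 6.24, adjusted p = 1.5e-05) and Gpnmb (4.19, adjusted p = 0.00057), with Gpnmb at 519 ± 59.2 and 435 ± 136 TPM on the diet. H2-M2 turned over, at 11.1 ± 7.45 TPM in F/F and 33.6 ± 2.22 TPM in W/F with vehicle, a difference of -1.71 (adjusted p = 0.022) against 3.47 on chow (difference between diets 5.18, adjusted p = 5.9e-05). H2-Aa was positive on chow and at -0.89 (adjusted p = 0.26) with vehicle (3.86, adjusted p = 0.0022). In 24 of 36 cell cycle, 19 of 40 stellate, 13 of 20 lipid-associated macrophage and 6 of 14 class II genes the chow difference was the more positive at an adjusted p under 0.05.

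Some genes of the male-biased and cholesterol lists fell on chow and were low in both genotypes on the diet. In the male-biased list 9 of 30 genes had the more negative difference on chow. Mup7 held 9.24 ± 3.47 TPM in F/F and 5.07 ± 1.94 TPM in W/F with vehicle (difference between diets -6.32, adjusted p = 0.0079), and Mup15 (-6.59), Hsd3b5 (-5.68), Mup17 (-5.59) and Mup11 (-4.53) behaved alike. In the cholesterol list 18 of 25 genes had the more negative difference on chow, and Msmo1 (-1.85, adjusted p = 3.7e-05) was at 8.22 ± 1.67 and 5.93 ± 0.62 TPM on the diet. Sqle turned over, being higher in F/F with vehicle by 1.40 (adjusted p = 8.7e-07) and lower on chow by 1.08 (difference between diets -2.47, adjusted p = 9.2e-08). Mid1ip1 fell on chow and was at 28.3 ± 2.27 and 30.7 ± 12.5 TPM with vehicle (-2.14, adjusted p = 0.0011).

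For the Kupffer cell markers Clec4f and Cd5l the F/F minus W/F difference was more negative on the diet. Clec4f was at 0.354 ± 0.158 TPM in F/F and 45.0 ± 18.2 TPM in W/F with vehicle, a difference of -5.00 against -1.85 on chow (3.15, adjusted p = 5.9e-06), and Cd5l at 1.58 ± 0.42 and 263 ± 40.5 TPM (-6.68 against -3.40, difference 3.28, adjusted p = 0.00025). For Cd5l the F/F means were 1.66 TPM on chow and 1.58 TPM on the diet, and the W/F means were 29.2 and 263 TPM. Cd207 was higher in F/F on chow and lower on the diet (3.89, adjusted p = 7.7e-05), as was Glul (1.38, adjusted p = 4.1e-06). For Srebf1 (-1.70 on chow, -1.32 with vehicle), Apoc1 (-0.93 and -1.22), Meg3 (3.10 and 2.92), Krt19 (1.54 and 1.51) and Inmt (-3.90 and -3.48) the difference between diets did not pass (adjusted p = 0.52, 0.31, 0.79, 0.97 and 0.70), which does not show that the differences were equal.

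**Figure D5:**
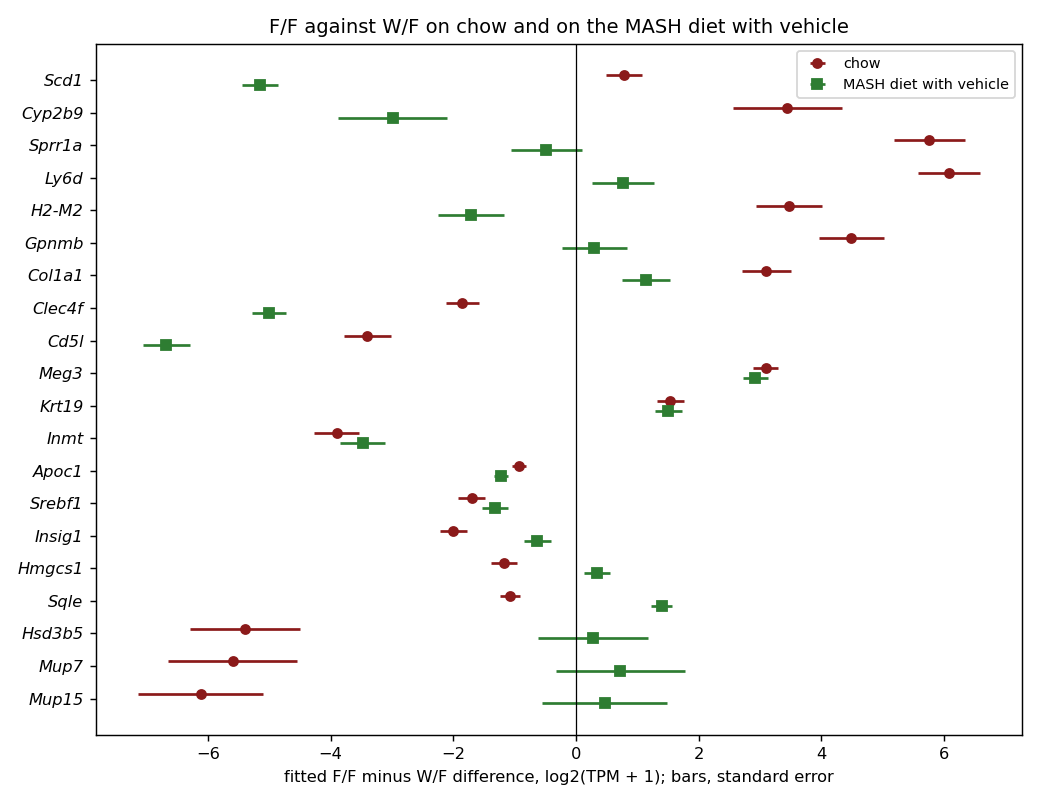
Fitted F/F minus W/F difference (horizontal, log2(TPM + 1), bars for the standard error) of 20 genes on chow (red circles) and on the MASH diet with vehicle (green squares), 4 livers per group. Scd1, Cyp2b9 and H2-M2 are positive on chow and negative on the diet, Ly6d and Sprr1a are large on chow only, Clec4f and Cd5l are more negative on the diet, and Meg3 and Krt19 nearly coincide.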

How the data were processed

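PolyA RNA of 36 mouse livers was measured, and the members and gene lists described here were chosen with earlier results of these data known. The authors deposited 1 table of TPM. Trimmomatic 0.36, STAR 2.5.2b, Subread 1.5.2 with featureCounts, and GRCm38 (mm10) are named in the submitters' processing notes. Gene symbols and coordinates came from GENCODE M21 (49056 of 49315 identifiers matched). TPM do not correct for library makeup. Per library, depth was recovered from TPM steps and exon lengths, with 93.7% to 95.7% of low values within 0.1 of a whole read (18.1 to 35.8 M reads). The log2(TPM + 1) values of all libraries were modelled by their 9 group means with limma 3.58.1 in R 4.3.3, with trended variances, two-sided tests and Benjamini-Hochberg adjustment over 16638 genes (threshold 0.05). The log2(TPM + 1) scale understates changes of low genes. Rescaling used median-of-ratios factors over the 14786 genes above 0 in all libraries.

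Named genes were the 12 largest and 12 smallest differences (adjusted p under 0.05, at least 5 TPM in the higher group, no overlap, called in both scalings, 1421 qualifying), up to 4 members of each list by adjusted p, 38 fixed genes, the 5 largest and 5 smallest differences between diets, and further genes chosen after their values were seen (members of small counts, genes that did not pass, and the Kupffer cell, cholesterol and acute phase genes listed as such). Shared sequence is the percent of 50-base windows of a gene's exons found in other genes. Same-numbered F/F and W/F libraries did not deviate together (correlations 0.08, -0.05, 0.06 and -0.03). They were treated as unpaired, although such correlations cannot exclude a pairing of the mice. No date, batch or strain is given, so none could be examined. Alternatives were another pseudocount (0.1), filters, recovered reads with voom, array weights, a replicate block, a fit of only the libraries compared, and the omission of libraries. Some genes that the rule names are not reported here.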

Additional observations from a re-analysis of the deposited data

Results flagged for a closer look

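In groups of 4, a sample was marked as far from the rest when its gap to the nearest one took a larger share of the group's range than Dixon's 95% critical value, which chance does in about 1 of 20 groups. Of 341 groups of values of the named genes 36 were marked. F/F replicate 1 was the highest F/F liver for Mup7 at 1451 TPM, Mup15 at 324 TPM, Mup17 at 146 TPM, Mup11 at 327 TPM, Hsd3b5 at 152 TPM, Cyp7b1 at 408 TPM, Cyp2f2 at 877 TPM, Gstp1 at 6422 TPM, Thrsp at 52.7 TPM, Per3 at 9.13 TPM and Gm23726 at 9.82 TPM. Most of these genes are of the male-biased list or the Mup family. F/F replicate 2 was highest for Fabp5 at 70.4 TPM, Mt2 at 2330 TPM and Fgb at 8903 TPM, and lowest for Acp5 at 89.9 TPM. F/F replicate 4 was highest for Spp1 at 933 TPM and lowest for Clec4f at 5.84 TPM.

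W/F replicate 4 was the highest W/F liver for Saa1 at 3791 TPM, Lcn2 at 418 TPM, Fgb at 4460 TPM, Mt2 at 259 TPM, Il1rn at 2.32 TPM, Mup15 at 4847 TPM, Mup16 at 307 TPM and Gtpbp4-ps1 at 1007 TPM, and the lowest for Lpcat3 at 38.7 TPM and Tdo2 at 1071 TPM. W/F replicate 3 was highest for Arntl at 7.45 TPM, H2-Aa at 21.1 TPM, Gsta1 at 5.82 TPM and Serpina1c at 6484 TPM. W/F replicate 2 was highest for Mylip at 6.78 TPM and Fgf21 at 3.47 TPM and lowest for Cyp2f2 at 1283 TPM, and W/F replicate 1 was lowest for Idi1 at 180 TPM and Hsd17b13 at 306 TPM.

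The F/F minus W/F difference itself differed between chow and the MASH diet with vehicle for 1136 genes, by limma's test of the difference between both. Among named genes the chow difference was larger by 6.43 for Cyp2b9, 6.24 for Sprr1a, 5.94 for Scd1, 5.31 for Ly6d, 5.18 for H2-M2, 4.19 for Gpnmb, 3.89 for Cd207, 3.86 for H2-Aa, 3.28 for Cd5l, 3.15 for Clec4f and 1.38 for Glul on the log2 scale. It was smaller for Mup15 (-6.59), Mup7 (-6.32), Hsd3b5 (-5.68), Mup17 (-5.59), Mup11 (-4.53), Sqle (-2.47), Mid1ip1 (-2.14) and Msmo1 (-1.85).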

How the results depend on the processing

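The count of 6884 genes stayed within 1.5 times under every alternative run: 7021 with a pseudocount of 0.1, 5403 of 11103 genes with at least 5 TPM, 6610 of 32923 without a filter, 5854 with only the 8 libraries, 8753 with array quality weights, 5949 of 16599 with voom on recovered reads, and 5296 to 7497 with 1 library left out. With a replicate block 7002 genes were called, and 1224 for the difference between diets; among named genes the block ended the call of Marco and added that of Arntl. The difference between diets was called for 2865 genes with array quality weights and for 703 to 1347 with 1 library left out. The cause was not tested. The difference in the share of the 100 most abundant genes was -5.85 percentage points without F/F replicate 2 (exact p = 0.0286) and ranged from -3.62 to -5.85 with 1 library left out. For every other omission of 1 library the exact p was 0.0857 to 0.1143. Of 181 named genes 161 were called, and 129 were called in the same direction under every alternative. Small differences changed sign: after rescaling Nr1h3 was at -0.24, Abcg5 at -0.34, Hadhb at -0.11, Ccne2 at -0.011, Acp5 at -0.24 and Ecm1 at -0.22, and with voom Abcg5 was at -0.059. With 1 library left out, the difference changed sign within the ranges -0.15 to 0.10 for Abca1, -0.18 to 0.35 for Abcg5, -0.34 to 0.26 for Abcg8, -0.076 to 0.59 for Fgb and -0.20 to 0.10 for Alb. Alternatives added after the data were seen left out 2 libraries together: without F/F replicates 1 and 2, Abcg8 was at 0.14, Fgb at -0.026 and Alb at 0.16, and without F/F replicate 2 and W/F replicate 4 Abcg8 was at 0.0082. Rescaling ended the calls of Nr1h2, Scd1, Mylip, Afp, Ccl2, Glul, Slc1a2, Ahsg, Abcc4, Cyp2c38, Cyp2c39, Trf, Got1, Hmox1, Id3, Plin3, Fmo2, Hsd17b13 and Pnpla2. Genes near 0 in 1 group are limited by depth, and their fitted differences depend on the pseudocount.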
